A study of Mus musculus with 6 samples.

Results

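The 10 genes described here encode receptors and transcription factors of the earliest thymic progenitors: Kit, Flt3, Cd34, Cd44, Mef2c, Lyl1, Lmo2, Hhex, Bcl11a and Spi1. They were taken by gene symbol, and each matched 1 of the 22298 Ensembl genes in the tables. All 10 passed the filter on low counts that left 13934 genes for testing. RNA sequencing covered thymus cells of untreated C57BL/6 mice in 2 genotypes with 3 libraries each. Controls were Toxf/f, with both copies of Tox carrying sites for Cre recombinase. The other group was Toxf/fCd4Cre, here called Cd4Cre, which adds Cre under Cd4 regulatory sequences. Ages were matched: replicate 1 of each group was 4 weeks old, and the other 2 replicates were 3 weeks old. No group carried Cre with an intact Tox gene, so effects of Cre and of Tox loss cannot be told apart. The labels do not say whether a replicate was 1 mouse, so p-values measure the spread between these libraries only.

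Blood-borne progenitors enter the thymus with high surface CD44 and KIT, and some still carry FLT3. Under Notch signalling they pass from the DN1 to the DN2 stage, and factors inherited from stem and progenitor cells, among them PU.1 (Spi1), LYL1, LMO2, HHEX, BCL11A and MEF2C, are shut down before commitment to the T lineage. None of these genes is restricted to thymic progenitors. B cells, myeloid and dendritic cells, mast cells and blood vessels also use several of them. Cre driven by Cd4 sequences is known for acting around the double-positive stage, after the stages that these genes mark.

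Library totals were 14550593 to 16099023 estimated counts. Tox, the targeted gene, was at 99.2 to 109 CPM (counts scaled to a common library size, with TMM factors) in controls and 10.2 to 15.1 CPM in Cd4Cre. The titles call the cells double-negative thymocytes and the protocol names sorted DN2 cells, but the markers went against both names. Cd8a, a coreceptor gene of later thymocytes, was at 546 to 570 FPKM (fragments scaled for transcript length and library size) in controls and 647 to 674 FPKM in Cd4Cre, whereas Kit was at 3.53 to 4.49 and 2.20 to 3.21 FPKM. The FPKM of Cd8a was thus 127 to 162 times that of Kit in controls and 202 to 299 times in Cd4Cre. The 10 genes together held 0.0145% to 0.0160% of the counts of a control library and 0.0111% to 0.0132% of a Cd4Cre library. In such mixed bulk samples, fewer cells of a type and less RNA per cell cannot be told apart. Y-linked genes gave 3740 counts in control replicate 2 and 2 to 5 counts in each other library. By these counts only that control library held male cells, so sex was not balanced between the genotypes. The part of sex in the differences was not tested.

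Mef2c fell in Cd4Cre libraries, and it was the 1 gene of the 10 that passed the test. Its level in Cd4Cre was 42.4% of control (95% interval 32.7% to 55.0%). Kit, Flt3 and Cd34 lay at 71.2%, 69.8% and 79.8% of control with no overlap between the groups, and none of them passed after adjustment over all genes. Cd44, Lyl1, Lmo2, Bcl11a and Spi1 were between 86.1% and 98.5% of control, and Hhex was at 160%, with overlapping libraries in all 6. Counts were tested by edgeR's quasi-likelihood method, with p-values adjusted (Benjamini-Hochberg) over the 13934 genes and called at 0.05. By that test 0 of the 10 genes rose and 1 fell, where 1.15% of all genes tested were higher and 2.96% lower.

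**Figure D1:**
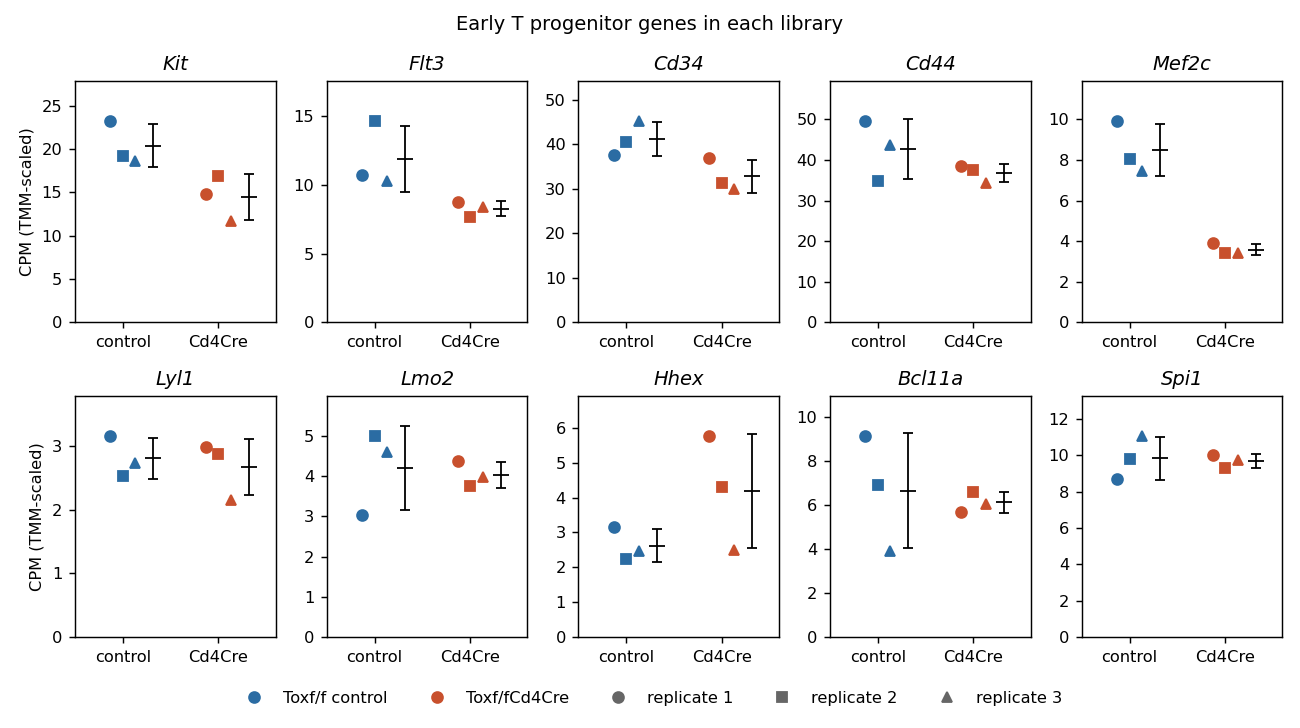
Level of each of the 10 genes in each library, in CPM scaled by TMM (linear axes from 0), with symbols for replicates and a bar for the mean and SD of the 3 libraries of a group. The Cd4Cre libraries lie below all controls for Kit, Flt3, Cd34 and Mef2c, and the groups overlap for the other genes.

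Among the receptors, Kit encodes the receptor for stem cell factor. It was at 23.2, 19.3 and 18.6 CPM in controls (replicates 1 to 3) and at 14.9, 16.9 and 11.7 CPM in Cd4Cre. Every Cd4Cre library was below every control, with means of 20.4 ± 2.49 and 14.5 ± 2.62 CPM (SD, n = 3). This is a log2 fold change of -0.49 (SE 0.14, 95% interval -0.80 to -0.18, edgeR adjusted p = 0.092). The call turned on the setting: adjusted p was 0.043 by DESeq2 and 0.032 without Cd4Cre replicate 2, and over all 15 alternatives it ran from 0.032 to 0.62.

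Flt3 encodes the receptor for FLT3 ligand, which sustains lymphoid progenitors and dendritic cells. Controls held 10.7, 14.61 and 10.25 CPM and Cd4Cre libraries 8.73, 7.67 and 8.42 CPM. Control replicate 2 stood well above the other 2 controls, and the lowest control was still above the highest Cd4Cre library. The log2 fold change was -0.52 (SE 0.16, 95% interval -0.86 to -0.18, edgeR adjusted p = 0.10), and adjusted p ran from 0.077 to 0.42 over the alternatives. Without control replicate 2, the library with Y-linked counts, the value was -0.34.

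Cd34, a sialomucin gene of stem and progenitor cells and of endothelium, had the highest median FPKM of the 10. Controls were at 37.6, 40.6 and 45.2 CPM and Cd4Cre libraries at 37.0, 31.4 and 29.9 CPM. The groups did not overlap, but control replicate 1 and Cd4Cre replicate 1, both from mice aged 4 weeks, differed by only 0.02 on the log2 scale, whereas the means of the 3-week libraries differed by 0.48. The log2 fold change over all libraries was -0.33 (SE 0.10, 95% interval -0.55 to -0.10, edgeR adjusted p = 0.13).

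Cd44 encodes the hyaluronan receptor that marks the first double-negative stages and is also made by memory and other mature T cells. It was at 49.5, 34.8 and 43.7 CPM in control libraries and at 38.4, 37.5 and 34.3 CPM in Cd4Cre. Control replicate 2 lay within the Cd4Cre range. The log2 fold change was -0.22 (95% interval -0.47 to 0.04, edgeR adjusted p = 0.41), so a fall to 72.0% of control and a rise to 103% both lie within the interval. The value was -0.096 without control replicate 1 and -0.34 without control replicate 2.

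Summed over these 4 receptor and adhesion genes, controls held 121, 109 and 118 CPM and Cd4Cre libraries 99.0, 93.5 and 84.3 CPM. The 6 factor genes summed to 32.2 to 37.0 CPM in control libraries and 27.8 to 32.7 CPM in Cd4Cre. Without Mef2c, the remaining 5 factors summed to 26.1 ± 1.23 and 26.7 ± 2.19 CPM (SD, n = 3). The receptor sum was separated between the groups, while the factor sum overlapped and, once Mef2c was left out, had nearly equal means. In that last sum the mean of Hhex was higher in Cd4Cre (4.19 CPM against 2.62 CPM in controls). The means of Bcl11a, Lmo2, Spi1 and Lyl1 were lower. These sums are given as descriptions without a test.

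**Figure D2:**
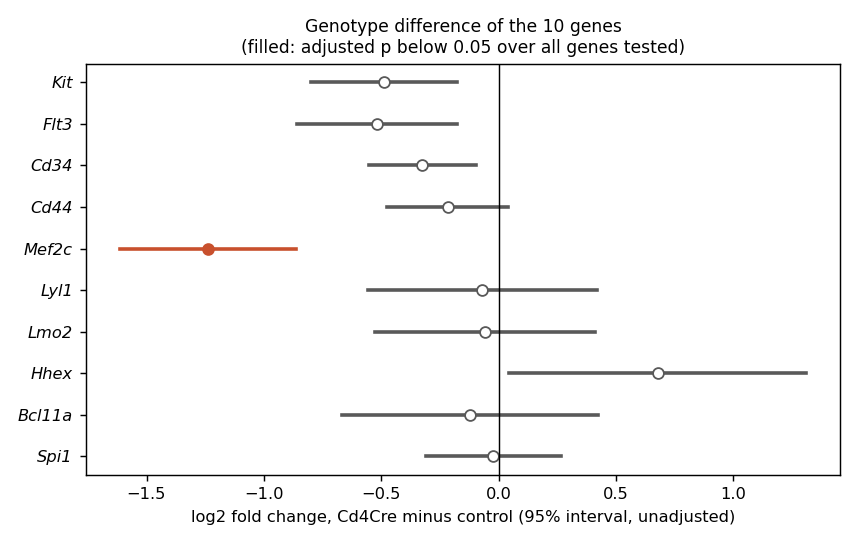
Log2 fold change, Cd4Cre minus control, of each gene with its 95% interval from the edgeR fit, not adjusted for the number of genes. Only Mef2c is past the adjusted threshold (filled, -1.24), and the intervals of Cd44, Lyl1, Lmo2, Bcl11a and Spi1 span 0.

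Among the factors, Mef2c encodes a MADS-box factor that supports lymphoid and myeloid progenitors and is also needed in B cells. Mef2c was at 9.90, 8.06 and 7.45 CPM in control libraries and 3.92, 3.43 and 3.41 CPM in Cd4Cre. All controls lay well above the Cd4Cre libraries, which were close together. Group means were 8.47 ± 1.28 and 3.59 ± 0.292 CPM (SD, n = 3), and the fall was -1.24 as a log2 fold change (SE 0.17, edgeR adjusted p = 0.0014). The deposited FPKM fell from 3.20 ± 0.485 to 1.34 ± 0.116. The fall stayed past the threshold in all 15 alternatives, among them the removal of any 1 library and the 3-week libraries alone (-1.18, adjusted p = 0.041). By exact permutation of the libraries (two-sided, log2 CPM) p was 0.1, which is as low as groups of 3 can reach.

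Spi1 encodes PU.1, the factor of the ETS family that holds progenitors open to myeloid and B cell fates. Controls were at 8.68, 9.77 and 11.04 CPM and Cd4Cre libraries at 9.999, 9.29 and 9.74 CPM, all within the control range. The log2 fold change was -0.02 (95% interval -0.31 to 0.27, edgeR adjusted p = 0.96). The deposited FPKM gave another picture, 5.31, 6.34 and 5.39 in controls against 7.27, 6.18 and 6.65 in Cd4Cre, with a log2 difference of 0.24 for FPKM plus 0.1 that did not pass (limma adjusted p = 0.42). The CPM per unit of FPKM, which would be steady for a gene of fixed length, ran from 1.38 to 2.05 over the libraries for Spi1, compared with 5.17 to 5.31 for Kit. The cause was not tested.

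Lmo2 encodes a LIM-only protein that bridges LYL1 or TAL1 to other DNA-binding factors. It was at 3.02, 4.99 and 4.59 CPM in control libraries and 4.37, 3.74 and 3.97 CPM in Cd4Cre, so that control replicate 1 was the lowest of the 6 libraries and control replicate 2 the highest. Its partner Lyl1, a basic helix-loop-helix factor gene, was at 3.15, 2.53 and 2.73 CPM in control libraries and 2.97, 2.87 and 2.16 CPM in Cd4Cre. The log2 fold changes were -0.06 (95% interval -0.53 to 0.41) for Lmo2 and -0.07 (-0.56 to 0.42) for Lyl1, with edgeR adjusted p of 0.93 and 0.91. In GENCODE M21 exons of Lyl1 overlap exons of Nfix on the opposite strand. The use of strand in counting is not given in the sources used here, so reads of Lyl1 and Nfix may be shared. Nfix was at 24.2 to 26.7 CPM in control libraries and 20.1 to 33.2 CPM in Cd4Cre.

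Hhex encodes a homeobox repressor of early progenitors that is also active in B cells and endothelium. Controls were at 3.15, 2.25 and 2.46 CPM and Cd4Cre libraries at 5.76, 4.30 and 2.50 CPM. Cd4Cre replicates 1 and 2 were above all controls, and replicate 3 was within the control range. Hhex was the 1 gene of the 10 with a positive log2 fold change, 0.68 (SE 0.29, 95% interval 0.05 to 1.31), which did not pass (edgeR adjusted p = 0.27). Without Cd4Cre replicate 3 the value was 0.93 with an adjusted p of 0.029, and without Cd4Cre replicate 1 it was 0.38 with an adjusted p of 0.72.

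Bcl11a encodes a zinc finger factor of progenitors, B cells and plasmacytoid dendritic cells, and its relative Bcl11b marks T lineage commitment. It had the widest spread among controls, with 9.13, 6.90 and 3.93 CPM, against 5.70, 6.61 and 6.05 CPM in Cd4Cre. The Cd4Cre libraries all lay between the highest and the lowest control. Bcl11a differed by -0.12 on the log2 scale (95% interval -0.67 to 0.43, edgeR adjusted p = 0.85), and it was 0.18 without control replicate 1, the 4-week library.

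The genotype difference was also taken by age. At 4 weeks, where each genotype has 1 library, the log2 difference was -0.68 for Bcl11a and 0.53 for Lmo2. In the 3-week libraries it was 0.28 and -0.31, the opposite direction for both. Mef2c was lower at both ages, with log2 differences of -1.34 at 4 weeks and -1.18 at 3 weeks, as was Kit (-0.64 and -0.43). A test of the difference between ages, added after the values were seen, passed for 0 of the 13934 genes (edgeR quasi-likelihood, smallest adjusted p = 0.39), with 122 genes and none of the 10 at an unadjusted p under 0.05. No other tool was run for it.

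Of the 10 genes, 4 (Kit, Flt3, Cd34 and Mef2c) had no overlap between the groups' CPM, all 4 lower in Cd4Cre, where 22% of all genes tested had no overlap in either direction. Unadjusted p was under 0.05 for 5 of the 10 and for 16.3% of all genes. The log2 fold change was below 0 for 9 of the 10 and for 47.6% of all genes, with medians of -0.17 and 0.01, but the sign turned under some alternatives for Lyl1, Lmo2, Bcl11a and Spi1. Libraries did not contribute evenly. Control replicate 1 was the highest of the 6 libraries for 5 genes (Kit, Cd44, Mef2c, Lyl1 and Bcl11a), and Cd4Cre replicate 3 was the lowest for 5 (Kit, Cd34, Cd44, Mef2c and Lyl1).

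**Figure D3:**
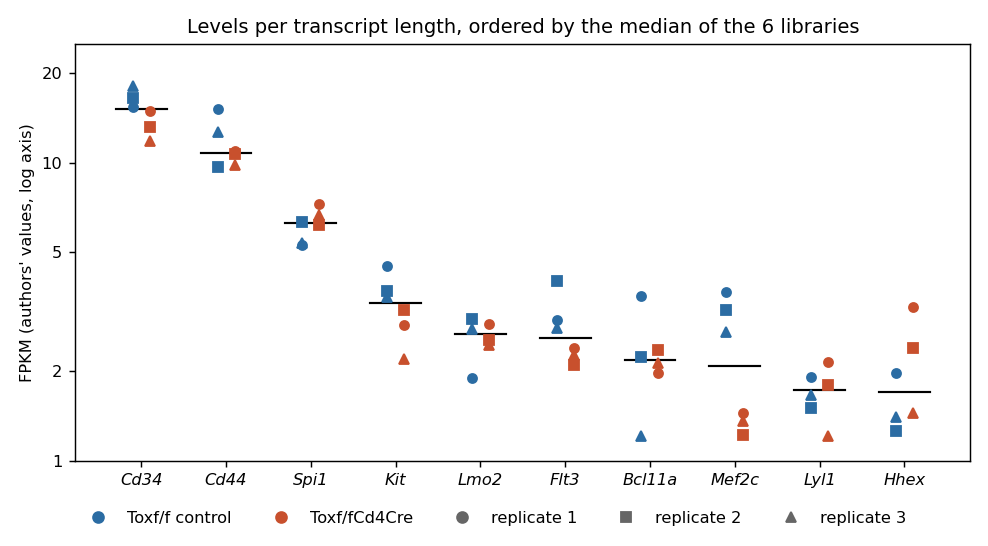
Deposited FPKM of the 10 genes in each library on a log axis, ordered by the median over the 6 libraries (black lines). Cd34, Cd44 and Spi1 lie above the other 7 genes, whose ranges overlap with their neighbours in the order.

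Per transcript length, Cd34 and Cd44 were the highest, with a median FPKM of 15.2 and 10.8. Their ranges overlapped, although Cd34 exceeded Cd44 in 6 of 6 libraries. Spi1 followed at 6.26 FPKM (range 5.31 to 7.27) and overlapped neither Cd44 nor Kit. Kit (3.37), Lmo2 (2.65), Flt3 (2.58), Bcl11a (2.17), Mef2c (2.08), Lyl1 (1.73) and Hhex (1.71) formed a run in which each gene overlapped its neighbours in range. The mean of Mef2c in controls was near those of Lmo2, Flt3 and Bcl11a (3.20 FPKM against 2.55, 3.26 and 2.34) and had the lowest mean of the 10 in Cd4Cre (1.34 FPKM), within the range of Lyl1 (1.21 to 2.15 FPKM).

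In the pathway column of the deposited tables, 6 of the 10 genes (Flt3, Hhex, Lmo2, Lyl1, Mef2c and Spi1) were listed under transcriptional misregulation in cancers, as were 1.38% of all 22298 genes. The 4 receptor and adhesion genes were all listed under hematopoietic cell lineage, with 0.973% of all genes.

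The patterns most like those of single genes were sought among 10506 genes of at least 5 CPM, by the mean absolute difference of centred log2 CPM over the 6 libraries. Among the nearest to Mef2c were Nlrc5, an activator of MHC class I genes (0.07), and Bcl2, which protects from apoptosis (0.10). These fell by 1.21 and 1.32 on the log2 scale (edgeR adjusted p = 8.8e-05 and 1.2e-05). The nearest to Flt3 were Gda, a guanine deaminase gene (0.02), Misp (0.06) and Id2, an inhibitor of E proteins (0.08). Those nearest to Hhex were Arap3 (0.13), Spry1, an inhibitor of receptor tyrosine kinase signalling (0.14), and Itgad, an integrin chain gene (0.16). None of those near Flt3 or Hhex passed except Itgad (0.69, adjusted p = 0.020), whose call ended without any 1 control or without Cd4Cre replicate 1 (adjusted p 0.068 to 0.10). Over 6 libraries this measure mixes the genotype difference with the spread within groups.

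Other progenitor genes did not move as a group. Of 20 on the list, 17 were tested, 1 fell and 16 did not pass, with a median log2 fold change of -0.02 beside 0.01 for all genes. The 1 that fell was Ly6a, which encodes the stem cell antigen SCA-1 and is also induced in activated lymphocytes and by interferon. Ly6a was at 68.1, 67.9 and 64.5 CPM in control libraries and 40.1, 30.9 and 45.3 CPM in Cd4Cre (log2 fold change -0.79, edgeR adjusted p = 0.0022). In the 3-week libraries alone its adjusted p was 0.069. Myb and Ikzf1, factor genes that stay on through T cell development, had the highest control levels of the list (238 and 200 FPKM) and log2 fold changes of 0.28 and 0.07. Named for their roles after their values were seen, the stem cell factor genes Meis1, Erg and Tal1 were at 2.56, 1.91 and 0.263 FPKM in controls and 2.53, 1.92 and 0.270 FPKM in Cd4Cre. Other genes of the list had larger log2 fold changes that did not pass, -1.03 for Gfi1b, -0.64 for Hoxa7, -0.46 for Il7r and 0.88 for Gata2. Gfi1b and Gata2 reached at most 0.77 and 0.72 FPKM in any library.

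Of 21 ligands, partners and relatives of the 10 genes, 20 were tested and none passed by the edgeR test. The E protein gene Tcf12 and the LMO2 partner Ldb1 were the highest in controls (175 and 174 FPKM), with log2 fold changes of 0.19 and 0.05. Further genes were named by role after their values were seen. The ligand genes Kitl and Flt3l had log2 fold changes of -0.12 and -0.36. Of the relatives of Mef2c, Mef2a and Mef2d were far more abundant than it per transcript length, at 59.5 and 71.2 FPKM in controls and 56.8 and 80.4 FPKM in Cd4Cre. Their log2 fold changes of -0.01 and 0.20 did not pass. Mef2b was below Mef2c, at 0.763 FPKM in controls and 1.08 FPKM in Cd4Cre, and its log2 fold change of 0.52 did not pass. The ratio of Mef2c to Mef2a in FPKM was 0.0536 ± 0.00598 in controls and 0.0239 ± 0.00427 in Cd4Cre (SD, n = 3). The ranges did not overlap (two-sided exact permutation p = 0.1, the smallest possible). Mef2c alone was already separated between the groups and Mef2a barely differed, so this ratio is not separate evidence.

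Of 16 genes of T lineage commitment, Ptcra (0.56) and Notch3 (0.56) rose, Lef1 (-0.47) fell and 13 did not pass. The median was 0.14. Tcf7 and Thy1, the highest of the list in controls (1284 and 887 FPKM), had log2 fold changes of 0.06 and 0.25 that did not pass. Calls of Notch3 and Lef1 ended without any 1 of the controls or without Cd4Cre replicate 1, and that of Notch3 also without Cd4Cre replicate 2 (adjusted p 0.051 to 0.11). Il2ra, named after its values were seen, is the DN2 and DN3 marker that rises as Kit is lost. The FPKM ratio of Kit to Il2ra was 0.183, 0.169 and 0.164 in controls and 0.112, 0.124 and 0.0901 in Cd4Cre, with no overlap (two-sided exact permutation p = 0.1). Kit alone was already separated between the groups, so this ratio is not separate evidence. The log2 fold change of Il2ra itself was 0.19 and did not pass. Of 11 genes of later thymocytes, Cd2 (-0.34) fell and 10 did not pass, with a median of 0.14. Cd8b1 and Dntt, the highest of the list in controls, were at 837 and 861 FPKM there and had log2 fold changes of 0.16 and -0.02. The call of Cd2 ended without control replicate 1 or 2 or Cd4Cre replicate 1 (adjusted p 0.090 to 0.13).

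B cells also carry Mef2c, and their markers did not move one way. Of 12 tested, 4 fell, 1 rose and 7 did not pass, with a median log2 fold change of -0.58. Fcer2a, the low-affinity IgE receptor of mature B cells, was at 10.5, 10.1 and 9.18 CPM in control libraries and 1.71, 1.43 and 1.25 CPM in Cd4Cre. Ms4a1, which encodes CD20, was at 10.4, 8.26 and 8.05 CPM in control libraries and 3.48, 2.49 and 2.37 CPM in Cd4Cre. Both genes and Mef2c were highest in control replicate 1, lower in every Cd4Cre library and lowest in Cd4Cre replicate 3. Other calls were Blnk (-0.68, adjusted p 0.057 to 0.061 without control replicate 1 or 2 or Cd4Cre replicate 1) and Blk, a kinase gene shared with gamma-delta T cells, which rose by 1.05. Cd79b and Cd79a, of the B cell receptor, had the highest control levels (19.0 and 11.2 FPKM) and did not pass (0.15 and -0.996). Named after their values were seen, Ebf1, a factor gene of B cell precursors, and Vpreb3 had log2 fold changes of 0.15 and 1.86 that did not pass. The summed level of the list was 55.5 to 61.4 FPKM in controls and 35.7 to 50.7 FPKM in Cd4Cre, and no marker was at 0. The FPKM ratio of Mef2c to Ms4a1 was 1.04 to 1.19 in controls and 1.27 to 1.79 in Cd4Cre, higher in every Cd4Cre library. Against Cd79b it went the other way, from 0.137 to 0.195 in controls and from 0.0621 to 0.0688 in Cd4Cre, lower in every Cd4Cre library. The part of B cells in the fall of Mef2c was not tested.

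**Figure D4:**
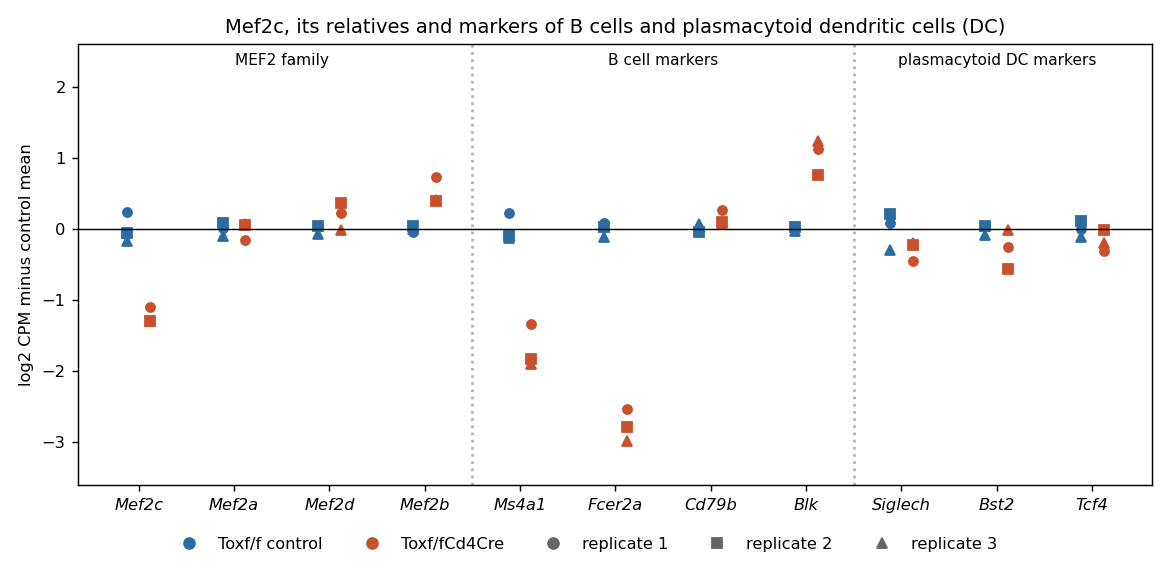
Log2 CPM of Mef2c, its relatives, B cell markers and plasmacytoid dendritic cell markers in each library, minus the mean of the controls. Mef2c, Ms4a1 and Fcer2a are lower in all Cd4Cre libraries, Blk is higher, and Mef2a and Cd79b lie near 0 in both groups.

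Plasmacytoid dendritic cells also carry Mef2c, Bcl11a and Flt3. None of their 10 markers passed by the edgeR test (median -0.22), and the summed level was 927 to 1011 FPKM in controls and 814 to 916 FPKM in Cd4Cre. Most of that sum came from Ly6d and Ccr9 (430 and 401 FPKM in controls), which thymocytes also express. Of 12 markers of conventional dendritic cells, which depend on Flt3, 3 fell and 9 did not pass (median -0.13). Ccl22 (-2.17), Fscn1 (-0.83) and Ccl17 (-1.31) are genes of the mature, migratory state, and the call of Ccl17 ended without control replicate 1 or 2 or Cd4Cre replicate 2 (adjusted p 0.057 to 0.14). Named after their values were seen, Clec9a (0.99), Xcr1 (0.39) and Batf3 (0.35) were higher and Itgax (-0.34) and Zbtb46 (-0.45) lower. None of these passed. Cd74 and H2-Ab1 were the highest in controls (578 and 266 FPKM) and did not pass. The summed level of this list was 939 to 1069 FPKM in controls and 775 to 927 FPKM in Cd4Cre. Most of that sum came from Cd74 and H2-Ab1. The part of conventional dendritic cells in the lower values of Flt3 was not tested.

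Markers of macrophages and monocytes bear on Spi1 and Cd44. Of 11, the lysozyme gene Lyz2 (-1.33) fell, the chemokine receptor gene Ccr2 (1.95) rose and 9 did not pass, with a median of 0.05. Lyz2 and C1qb, the highest of the list in controls, were at 258 and 107 FPKM there and at 102 and 101 FPKM in Cd4Cre. The summed level was 605 to 649 FPKM in controls and 450 to 478 FPKM in Cd4Cre. Most of that difference came from Lyz2, and no marker was at 0. Of 7 neutrophil markers, Ltf (1.02) rose and 6 did not pass (S100a9 at 41.2 and 40.3 FPKM, median -0.01, sums of 71.7 to 89.7 and 69.6 to 113 FPKM). Of 7 mast cell and basophil markers, which bear on Kit, 2 were abundant enough to test and neither passed. Cpa3 was at 4.66 FPKM in controls and 5.12 FPKM in Cd4Cre, and 5 markers stayed under 1 FPKM in every library.

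Endothelium and mesenchyme, which also carry Cd34, had detectable markers in both genotypes. Of 10 endothelial markers 0 passed by the edgeR test (median 0.04), with summed levels of 88.0 to 93.6 FPKM in controls and 78.1 to 97.3 FPKM in Cd4Cre. Pecam1 and Plvap led the list in controls (58.6 and 7.40 FPKM), and most of the summed level came from Pecam1. No other endothelial marker was set against Cd34 as a ratio. Of 6 mesenchymal markers 0 passed (median -0.28), with sums of 104 to 159 and 99.5 to 114 FPKM. The highest were Dcn and Col3a1 (58.2 and 50.8 FPKM in controls). The FPKM ratio of Cd34 to Pecam1 was 0.253 to 0.318 in controls and 0.223 to 0.2495 in Cd4Cre, with no overlap, whereas that of Cd34 to Dcn was 0.263 to 0.341 and 0.258 to 0.358. Red cell genes, which share Lmo2, had 5 of 8 markers tested and none past the test (median 0.32), with sums that ran from 675 to 2503 FPKM in controls and 782 to 2987 FPKM in Cd4Cre.

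Mature T cells carry Cd44 as well. Of 11 of their genes, 9 fell and 2 did not pass (median -0.96), among them Gimap4 (-2.33), Gimap3 (-2.21), Ccr7 (-1.33) and Cd69 (-0.98), and the summed level was 537 to 586 FPKM in controls and 360 to 400 FPKM in Cd4Cre. Of 8 tested genes of gamma-delta and NK cells, 6 rose and 2 did not pass (median 1.53), among them Cd163l1 (4.19), Klrk1 (2.51), Trgc4 (1.71) and Trdc (0.78), with sums of 64.5 to 72.0 and 134 to 159 FPKM. Of 8 markers of thymic epithelium, 4 rose, among them Psmb11 (0.48) and Krt18 (0.47), 1 fell and 3 did not pass (median 0.22, sums of 484 to 551 and 619 to 687 FPKM). Psmb11 and Krt18 stayed past the threshold without any 1 library, whereas the calls of Krt5, Krt8 and Krt14 each ended without one or more (adjusted p 0.051 to 0.22 over the libraries left out in turn). The part of these changes in marker genes in the values of the 10 genes was not tested.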

How the data were processed

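Each deposited table gives 1 library's estimated count and its FPKM for every Ensembl gene, per the file headers. fastp 0.18.0, HISAT2 and StringTie 1.3.1 are named per the submitters' processing notes. For the genome build and annotation, the sources used here name none. Of the values in a count column, 9.27% to 9.87% were not whole numbers, and counts were rounded.

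Genes were filtered with filterByExpr in edgeR 4.0.16 (R 4.3.3; minimum count 10, minimum total 15), libraries were scaled by TMM, and genotype was tested by the edgeR quasi-likelihood test over 13934 genes. SE and 95% intervals come from its F statistic and total degrees of freedom. Single values, such as ratios of FPKM, were compared by exact permutation over libraries. Alternatives (15 settings) included DESeq2 1.42.0 and limma 3.58.1 on log2(FPKM + 1) and log2(FPKM + 0.1). The 10 genes and the 16 marker and pathway lists were chosen with earlier results of these data known. Named genes are the 10, up to 4 called genes with the smallest p per list, the 2 highest control FPKM per list, and the 3 nearest patterns to each called gene of the 10 and to the 2 largest changes not called. Some results that these rules select are not reported here.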

Additional observations from a re-analysis of the deposited data

How the results depend on the processing

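Mef2c was lower and past the threshold in all 15 alternatives (log2 fold change -1.32 to -0.84, adjusted p 3.5e-06 to 0.041). The number of the 10 genes called was 1 to 2 when 1 library was left out, 2 by DESeq2's Wald test (Kit added) and 1 in the other settings. Without Cd4Cre replicate 2 the gene added was Kit, and without Cd4Cre replicate 3 it was Hhex. Lyl1, Lmo2 and Hhex have no value under the filter of at least 5 CPM. Over all genes, 572 were called (160 higher, 412 lower). The 3-week libraries alone gave 151 (28 higher, 123 lower), with fewer samples, and limma gave 101 higher on log2(FPKM + 1) and 102 on log2(FPKM + 0.1), where the cause was not tested. Leaving out 1 library gave 298 (without control replicate 2) to 1269 genes (without Cd4Cre replicate 3), with 67 to 475 higher and 231 to 794 lower. Same-numbered libraries deviated from their group means with correlations across genes of 0.0849, -0.110 and -0.0426, so the numbers were not taken as pairs. The replicate block gave 440 genes (122 higher, 318 lower) and Mef2c at -1.23, and among the named genes it ended the calls of Ccl17, Cd2 and Krt8. The cause was not tested.

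Among the genes described here, directions turned only for Lyl1, Lmo2, Bcl11a and Spi1. Their log2 fold changes in the main fit were -0.07, -0.06, -0.12 and -0.02. On log2(FPKM + 1) and log2(FPKM + 0.1) the values were 0.04 and 0.062 for Lmo2 and 0.21 and 0.24 for Spi1. Lyl1 was at 0.0018 on log2(FPKM + 1), and Bcl11a was at 0.0054 on log2(FPKM + 0.1) and 0.23 in the 3-week libraries alone. With 1 library left out, Lyl1 ran from -0.15 to 0.058, Lmo2 from -0.25 to 0.080, Bcl11a from -0.39 to 0.18 and Spi1 from -0.11 to 0.070. Of 45 marker and likeness genes compared across settings, 19 lost a call in the 3-week libraries alone, among them Ptcra, Blk, Psmb11 and Krt18. Lyl1, Lmo2 and Hhex rest on 31 to 91 counts per library, and the intervals run from 68.0% to 134% of control for Lyl1 and from 69.4% to 133% for Lmo2.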

Other observations

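Spreads within a group, which hold differences between libraries as well as counting error, are given as values without a test. The CPM of Bcl11a varied by 39.3% (SD as a percent of the mean, n = 3) among controls, where counting error alone would give 9.97%, and by 7.501% in Cd4Cre, with 10.3% from counting. Hhex varied by 38.9% in Cd4Cre, with 12.4% from counting, and by 17.9% in controls, with 15.9% from counting. Lyl1, the gene of the 10 with the fewest counts (31 to 49 per library), varied by 11.4% and 16.7%, close to the 15.4% and 15.6% that counting error gives.

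The FPKM ratio of Spi1 to C1qa, a complement gene of macrophages, was 0.0619 to 0.0680 in controls and 0.0749 to 0.0925 in Cd4Cre. These ranges do not overlap (two-sided exact permutation p = 0.1, the smallest possible). The ratio rests on FPKM, whose relation to the counts of Spi1 varied between libraries. In CPM the groups overlapped. There the ratio was higher in control replicate 3 (11.04 to 89.3) than in Cd4Cre replicate 2 (9.29 to 86.1).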
